A study of Homo sapiens with 28 samples.

Results

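m6A peaks on chromatin-associated RNA (caRNA) were compared between a promyelocytic and a hepatoma cell line. NB4 is a human acute promyelocytic leukaemia line, here with the genotype Control, and HepG2 is a human hepatoma line, here wild type (WT). Peak lists of 3 NB4 Control and 2 HepG2 WT immunoprecipitation (IP) libraries entered the comparison, which are 5 of the 28 samples and 5 of the 14 IP libraries with a peak list in the series. Overlapping peaks of the 5 lists on chromosomes 1 to 22 and X were merged with the strands kept apart, which gave 52485 regions. A region was NB4-only if all 3 NB4 libraries and neither HepG2 library had a peak in it, HepG2-only if the reverse held, and shared if all 5 libraries had a peak. By this rule 8457 regions were NB4-only, 7563 were HepG2-only and 9888 were shared, which are 16.1%, 14.4% and 18.8% of all merged regions.

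The groups differ in more than the cell of origin. Per the study's methods, the NB4 Control cells had been transduced with lentivirus for a non-targeting short hairpin RNA and selected. Per the labels, the HepG2 cells are wild type, and NB4 was grown in RPMI medium and HepG2 in DMEM. Line, hairpin and medium cannot be told apart in these libraries. NB4 is known to carry the PML-RARA fusion. The labels do not say that replicates came from separate cultures, so the spread between libraries of a line may be technical.

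N6-methyladenosine (m6A) is written on nascent RNA by a METTL3-METTL14 methyltransferase complex, mostly at adenosines in a DRACH context (D is any base but C, R a purine, H any base but G), of which GGACT is the best known form. On mature mRNA it gathers near stop codons, in long internal exons and in 3′ UTRs. RNA retained on chromatin also holds introns, promoter-associated transcripts and other noncoding RNA, where m6A has been tied to chromatin state and transcription. NB4 cells are arrested at the promyelocyte stage, when the enzymes of the azurophil granule are made, and HepG2 cells keep many hepatocyte products such as plasma proteins, apolipoproteins and liver transcription factors. In MeRIP-seq a peak needs an RNA that is present and enriched by the IP, and this enrichment is read as methylation. In these bulk libraries fewer cells of a type, less RNA and less methylation cannot be told apart.

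The sequences under the summits are shown for a few regions of each line, while the comparison itself rests on the overlap of peaks. GGACT lay within 75 bases of the summit in 4 of the 10 strongest NB4-only and 6 of the 10 strongest HepG2-only regions. The numbers of sequences printed with and without it do not follow these shares. The first set holds regions with GGACT (in capitals) within 75 bases of the summit, read from the hg38 reference along the strand that carried the peak. SYNPO2, APOBR, TENT5C and ICOSLG were among the 10 strongest NB4-only regions, and KIF13A, ARHGEF12 and EVC among the 10 strongest HepG2-only regions. SPN, TBX3 and HP are members of the gene lists described further on.

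SYNPO2 (NB4-only, coding exon, chr4:119030140-119030240, + strand): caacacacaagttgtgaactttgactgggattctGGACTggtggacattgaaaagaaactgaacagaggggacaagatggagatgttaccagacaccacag
APOBR (NB4-only, coding exon, chr16:28497359-28497459, + strand): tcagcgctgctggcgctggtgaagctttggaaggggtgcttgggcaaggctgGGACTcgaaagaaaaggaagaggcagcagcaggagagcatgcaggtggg
TENT5C (NB4-only, coding exon, chr1:117623467-117623567, + strand): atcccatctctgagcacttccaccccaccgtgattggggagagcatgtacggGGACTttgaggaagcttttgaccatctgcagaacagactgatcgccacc
SPN (NB4-only, coding exon, chr16:29664514-29664614, + strand): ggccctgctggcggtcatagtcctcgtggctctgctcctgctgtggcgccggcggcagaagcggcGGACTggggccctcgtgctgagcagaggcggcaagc
ICOSLG (NB4-only, 3′ UTR, chr21:44227289-44227318, - strand): tcctaagccccaGGACTgagggtcgtgcat
KIF13A (HepG2-only, coding exon, chr6:17764393-17764493, - strand): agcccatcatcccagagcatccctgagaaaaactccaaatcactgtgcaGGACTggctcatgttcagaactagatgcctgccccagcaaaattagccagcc
ARHGEF12 (HepG2-only, coding exon, chr11:120480208-120480308, + strand): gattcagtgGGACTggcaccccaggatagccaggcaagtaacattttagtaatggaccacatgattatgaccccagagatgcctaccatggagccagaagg
TBX3 (HepG2-only, stop codon window, chr12:114671921-114672021, - strand): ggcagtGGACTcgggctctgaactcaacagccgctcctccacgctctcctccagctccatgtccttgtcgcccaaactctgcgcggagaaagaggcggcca
EVC (HepG2-only, 3′ UTR, chr4:5813938-5813967, + strand): aggagcatgatggGGACTtccatgctggaa
HP (HepG2-only, stop codon window, chr16:72060844-72060873, + strand): tgacttccatccaGGACTgggttcagaaga

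The second set holds regions without GGACT in that window. AZU1, CCDC88C and ONECUT1 were among the 10 strongest regions of their line, and MET is a member of a gene list. The intronic NB4-only summits in AZU1 and CCDC88C lay in purine-rich repeated sequence, while ONECUT1 and MET lay in coding sequence or at a promoter. The AZU1 sequence as printed holds no AC and thus no DRACH site. Whether the AZU1 peak reflects methylation was not tested.

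AZU1 (NB4-only, intron 2 of 4, chr19:828751-828851, + strand): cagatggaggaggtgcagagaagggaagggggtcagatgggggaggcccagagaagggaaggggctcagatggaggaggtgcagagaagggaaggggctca
CCDC88C (NB4-only, intron 23 of 29, chr14:91293440-91293540, - strand): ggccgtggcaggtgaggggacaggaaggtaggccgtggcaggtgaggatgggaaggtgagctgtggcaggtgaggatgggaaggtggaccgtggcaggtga
ONECUT1 (HepG2-only, promoter, chr15:52789569-52789669, - strand): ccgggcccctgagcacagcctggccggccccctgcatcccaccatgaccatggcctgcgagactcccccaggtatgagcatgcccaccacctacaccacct
MET (HepG2-only, coding exon, chr7:116699428-116699528, + strand): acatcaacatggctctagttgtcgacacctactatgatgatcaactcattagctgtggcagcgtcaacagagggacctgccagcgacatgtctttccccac

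The lists differed in length, effective depth and fold over local background before any region was compared. NB4 Control 1, 2 and 3 held 29511, 31899 and 33400 peaks and HepG2 WT 1 and 2 held 22635 and 27358. The depth recovered from the lists was 10.8, 14.1 and 17.2 M effective reads (M, mega-reads) in NB4 and 29.2 and 32.9 M in HepG2. The median fold of a summit over its local background was 5.38 to 6.14 in NB4 and 3.84 to 4.03 in HepG2, and the median peak was 243 to 249 bases wide in NB4 and 320 to 327 in HepG2. NB4 lists were thus longer and of lower effective depth, with narrower peaks of higher fold. The lines did not overlap in number of peaks, effective depth, median fold or median width. Within NB4 the median fold fell from 6.14 to 5.56 and 5.38 as effective depth rose, so it is not read here as a difference in enrichment. An exact two-sided permutation test of 3 libraries against 2 has 10 arrangements and cannot give a p below 0.1, which is the p it gave for the number of peaks.

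Line-only regions made up between 27.4% and 35.1% of the regions of a library, and shared regions between 32.1% and 45.9%. Strength is given as the percentile of a region's highest -log10 q (the significance that the peak caller gave the peak) among the peaks of its own library, so that lists of different depth can be compared. The median percentile was 50.7 for NB4-only regions, 43.9 for HepG2-only regions, and 74.4 in NB4 and 69.2 in HepG2 for shared regions. Of the NB4-only regions 448 (5.30%) and of the HepG2-only regions 432 (5.71%) had a mean percentile of 90 or more, against 21.6% (NB4) and 17.9% (HepG2) of shared regions and 5.14% and 4.39% of all merged regions. Line-only regions were therefore mostly of middling strength, and a smaller share of them than of shared regions was strong. The 5.14% and 4.39% count regions without a peak in that line as not strong, so they are no like measure for the line-only shares.

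The rule has a sharp edge. Another 5496 regions had a peak in 2 NB4 libraries and none in HepG2, 1489 had a peak in all 3 NB4 libraries and 1 HepG2 library, and 5262 had a peak in a single HepG2 library. Counts therefore depended on which libraries were required. With a peak in at least 2 NB4 libraries, 13953 regions were NB4-only, and without HepG2 WT 1, 12050 were HepG2-only. The order of the lines also turned with list length, because cutting every list to its 22635 most significant peaks left 5292 NB4-only and 7623 HepG2-only regions. For matched depth, pileup and background at each called summit were scaled to the lowest effective depth and peaks were kept by their new p. No reads were thinned, and the counts were 8856 and 6251.

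The strongest NB4-only region of a protein-coding gene lay in AZU1, which encodes azurocidin, an antimicrobial protein of the azurophil granule. Its -log10 q was 791, 757 and 613 in NB4 Control 1, 2 and 3, the highest of any peak in each of these libraries, and no peak overlapped it in HepG2. The region spanned 1136 bases of intron 2 of 4. MYO15B (exon 1 of 64) followed with 414, 472 and 346. All 3 libraries placed both regions above the 99th percentile.

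Further leading NB4-only regions were in TRIB2, a pseudokinase, ICOSLG, a costimulatory ligand, SYNPO2, an actin-binding protein, CCDC88C, a Dishevelled-binding protein, APOBR, a lipoprotein receptor of macrophages, TENT5C, a poly(A) polymerase, and GBGT1, a glycosyltransferase. Their -log10 q ranged from 267 to 402. The summits fell at the stop codon in TRIB2 and GBGT1, in the 3′ UTR of ICOSLG, in the coding exon of SYNPO2, APOBR and TENT5C and in an intron of CCDC88C. Regions of TRIB2, APOBR, TENT5C and GBGT1 had a peak in all 6 K562 libraries, and those of SYNPO2 and CCDC88C in none, K562 being the chronic myelogenous leukaemia line of the series.

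The strongest HepG2-only region lay in the last exon (21 of 21) of EVC, which encodes a ciliary protein of the Hedgehog pathway, with -log10 q of 159 and 280 in HepG2 WT 1 and 2. SLC22A18, a transporter gene, followed with 136 and 259, and SETBP1, which encodes a SET-binding protein, with 136 and 240. Next came KIF13A (a kinesin), DENND2B (an exchange factor for Rab proteins), ARHGEF12 and ARHGAP29 (regulators of small GTPases), ONECUT1 (the liver transcription factor HNF6), ANKS4B (a scaffold of microvilli) and OXER1 (a receptor for an oxidised fatty acid). These ranged from 119 to 270, and 6 of the 10 leading regions were in coding exons. The regions of ARHGAP29, ONECUT1, ANKS4B and OXER1 had no peak in any K562 library, while those of EVC, SETBP1, KIF13A, DENND2B and ARHGEF12 had one in all 6. Leading regions of both lines were thus a mixture of those also found in K562 and those absent from it.

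**Figure D1:**
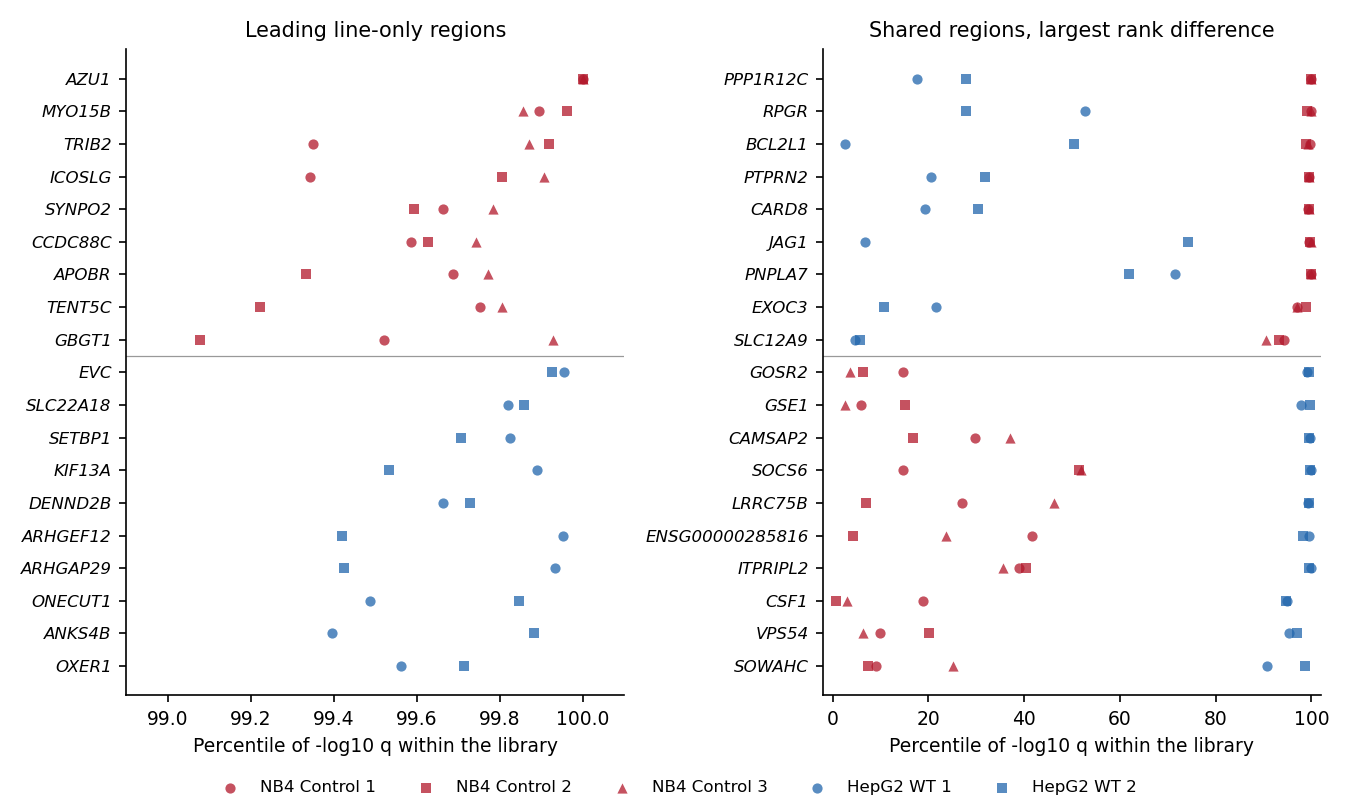
Percentile of -log10 q within the library for leading line-only regions of each line (left; x axis from just below the 99th percentile) and for shared regions with the largest rank differences in each direction (right), 1 point per library. On the left each region has points only from its own line because the other line has no peak there, and AZU1 sits at the top of all 3 NB4 libraries. On the right the regions were picked so that the lines lie apart, with PPP1R12C high in NB4 and GOSR2 high in HepG2.

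At the level of genes, 12816 genes had a same-strand summit in at least 1 of the 5 libraries. Of these 1904 (14.9%) had one in all 3 NB4 libraries and no HepG2 library, 1551 (12.1%) had one in both HepG2 libraries and no NB4 library, and 6147 (48%) had one in all 5. The order of the line-only counts turned to 1435 and 1735 with lists of equal length. The labelled cell types were checked against marker genes. Of 12 promyelocytic markers 10 had a summit, 8 of them NB4-only (MPO, PRTN3, AZU1, SPI1, CEBPE, PTPRC, CD33 and ITGB2), CSF3R was in all 5 libraries, and ELANE and LYZ had no summit in any. Of 14 hepatocytic markers 10 had a summit and 7 were HepG2-only (TF, TTR, FGA, FGB, HNF4A and FOXA2 among them), whereas APOA1, APOB and SERPINA1 had a summit in HepG2 WT 2 alone, and the defining plasma proteins ALB and AFP had none, nor did APOC3 and FGG. TTR rested on 1 weak region that was not line-only with stricter peaks, at matched depth or with lists of equal length. Of 14 erythroid and megakaryocytic markers 2 had a summit, 1 of them NB4-only and 1 in all 5 libraries. ITGA2B of this list held an NB4-only region at percentiles 84.6, 85.7 and 53.2 in NB4 Control 1, 2 and 3. That region also had a peak in 6 K562 libraries. Of 12 lymphoid markers 2 had a summit and of 10 monocyte markers 1 (CSF1R, NB4-only).

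Genes of the granule and of its promyelocyte were marked in NB4. Of the 13 listed promyelocyte and granule genes with a summit 9 (69.2%, against 14.9% of all genes) were NB4-only, none was HepG2-only and SERPINB1 was in all 5 libraries. MPO, the myeloperoxidase, had 3, 1 and 1 summits in NB4 Control 1, 2 and 3, the highest at percentiles 74.9, 58.0 and 1.47. PRTN3, the protease proteinase 3, reached percentiles 44.8, 89.5 and 96.9. RNASE2, an eosinophil ribonuclease, stayed at 30.3, 16.8 and 27.6. Within this group AZU1 and P2RY8, a purinergic receptor gene, were above the 99th percentile in every NB4 library. P2RY8 lies in the pseudoautosomal region, where X and Y copies are identical, so its reads are uncertain.

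Of 25 myeloid transcription factor genes with a summit, 11 were NB4-only (44%, against 14.9% of all genes) and none was HepG2-only. The 12 in all 5 libraries were 48%, the same share as among all genes. SPI1, which encodes PU.1, had 7 summits in each NB4 library and none in HepG2, and its strongest region was not line-only with windows around summits. CEBPE, a late granulocytic factor, had a stop codon region at percentiles 98.4, 95.4 and 88.9, and MYB, a progenitor factor, had 3 summits in each NB4 library. CEBPA, which serves both granulocytes and hepatocytes, was in all 5 libraries at 86.5, 94.2 and 74.1 in NB4 and 94.2 and 83.0 in HepG2. The NB4-only set also held RUNX2, RUNX3, FLI1, LMO2, IKZF1, ZEB2 and PML. PML held 4 NB4-only regions, whereas RARA, its partner in the fusion, had summits in all 5 libraries and 1 HepG2-only region, which was no longer line-only at matched depth.

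Haematopoietic surface and signalling genes had the highest NB4-only share of the lists, 32 of 38 with a summit (84.2%, against 14.9% of all genes). None was HepG2-only, against 12.1% of all genes. SPN, which encodes the sialoglycoprotein CD43, held 4 NB4-only regions, the strongest at -log10 q of 233, 228 and 194. CXCR4, the receptor of the chemokine CXCL12, had 176, 143 and 216 in its coding exon. The kinase genes SYK, BTK and LYN, the adaptor genes VAV1 and LCP2, the integrin genes ITGAM, ITGAL, ITGB2 and ITGA4 and the oxidase genes NCF4 and CYBB were NB4-only as well. CSF3R, INPP5D and CYBA were in all 5 libraries. CSF2RA and IL3RA are pseudoautosomal and uncertain for the reason given for P2RY8.

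Liver transcription factor genes were marked in HepG2. Of 21 hepatocyte transcription factors with a summit, 18 (85.7%, against 12.1% of all genes) were HepG2-only, the nuclear receptors RXRA and PPARA were in all 5 libraries, and none was NB4-only. FOXA1, a pioneer factor, had -log10 q of 90.9 and 205, FOXA2 76.1 and 216, and HNF4A 46.8 and 67.3. NR1H4, the bile acid receptor, reached percentiles 33.2 and 85.2. In each of these regions HepG2 WT 2 had the higher -log10 q. FOXA1 was no longer line-only when windows around summits replaced whole peaks.

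Of the plasma protein genes with a summit, 14 of 23 secreted protein genes (60.9%) and 15 of 20 coagulation and complement genes (75%) were HepG2-only, against 12.1% of all genes. HP, haptoglobin, had -log10 q of 78.0 and 179 and INHBE, an activin subunit secreted by liver, had 120 and 178. F7, a clotting factor, had 77.2 and 179 in its 3′ UTR, and F5 had 69.3 and 107 in a region that was not line-only with windows around summits. The complement genes C3, C5, C1R, CFI, MASP1, MASP2 and MBL2 were HepG2-only, whereas C4A and C4B are near-identical copies whose peaks are uncertain. IGFBP2 was the exception of the secreted proteins, with summits in all 3 NB4 libraries and no HepG2 library. In the group of apolipoprotein and lipid genes 5 of 24 (20.8%, against 12.1% of all genes) were HepG2-only (APOA5, APOM, ABCG5 and ABCG8 among them). In all 5 libraries were 8 (33.3%, against 48% of all genes), including the sterol synthesis genes HMGCS1 and SQLE, and PLTP and CPT1A were NB4-only.

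Among hepatic enzymes and transporters 10 of 20 with a summit (50%, against 12.1% of all genes) were HepG2-only, including PCK1 and G6PC1 of gluconeogenesis and CPS1 of the urea cycle. CYP2E1, a liver cytochrome P450, had 1 NB4-only region at percentiles 49.9, 22.6 and 49.96. That region was lost with lists of equal length and had a peak in none of the 3 other NB4 libraries, those with RBFOX2 knocked down. Of 18 hepatoma and oncofetal genes with a summit, 7 (38.9%, against 12.1% of all genes) were HepG2-only (GPC3, PEG10, PEG3, KRT19, AXIN2, LGR5 and TBX3, some of them in other lists too). Another 7 (38.9%, against 48% of all genes) were in all 5 libraries, including IGF2BP1, IGF2BP2, IGF2BP3 and TERT. H19, an imprinted noncoding RNA, was NB4-only at 79.3, 48.7 and 64.5. Epithelial genes were HepG2-only in 12 of 20 cases (60%, against 12.1% of all genes), such as the receptors MET and EGFR and the junction genes CLDN1, OCLN and TJP1, and none was NB4-only. MET had 5 HepG2-only regions.

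Genes of the m6A machinery behaved otherwise. Of the 23 m6A writer, reader and eraser genes, all of which had a summit, 20 (87.0%) were in all 5 libraries, against 48% of all genes. RBFOX2, the reader that the study depletes, was NB4-only, with a region in intron 2 of 13 at -log10 q of 55.2, 8.95 and 12.4. That region was weak in NB4 Control 2 and 3 and lost its line-only status with lists of equal length. Of 28 TGF-beta pathway genes with a summit, 17 (60.7%, against 48% of all genes) were in all 5 libraries. Another 6 (21.4%, against 12.1% of all genes) were HepG2-only, namely TGFB3, LTBP3, SMAD1, ACVR1, ACVR2A and BMP4, and INHBA was NB4-only. The INHBA region, at -log10 q of 64.3, 44.7 and 39.9, had a peak in none of the NB4 libraries with RBFOX2 knocked down. TGFB1 had a shared promoter region and, in addition, 1 NB4-only region and 1 HepG2-only region. Of 22 genes of Polycomb repressive complex 2 and related silencing with a summit, 13 (59.1%, against 48% of all genes) were in all 5. Another 6 (27.3%, against 14.9% of all genes) were NB4-only, namely EZH1, EZH2, RBBP4, PHF1, DNMT1 and DNMT3B, and RING1 was HepG2-only.

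Housekeeping genes, which both lines are known to transcribe, were divided unevenly. Of 16 with a summit, 6 (37.5%) were NB4-only (ACTB, HSPA8, HSP90AB1, HPRT1, YWHAZ and GUSB), none was HepG2-only and 2 (12.5%, against 48% of all genes) were in all 5. ACTB, cytoplasmic actin, had a stop codon region at -log10 q of 86.8, 46.5 and 40.1 in NB4, and no peak in HepG2. The NB4-only share exceeds the 14.9% of all genes, and the NB4 lists also had the higher median fold. The part of fold, depth or list length in the NB4-only counts was not tested.

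**Figure D2:**
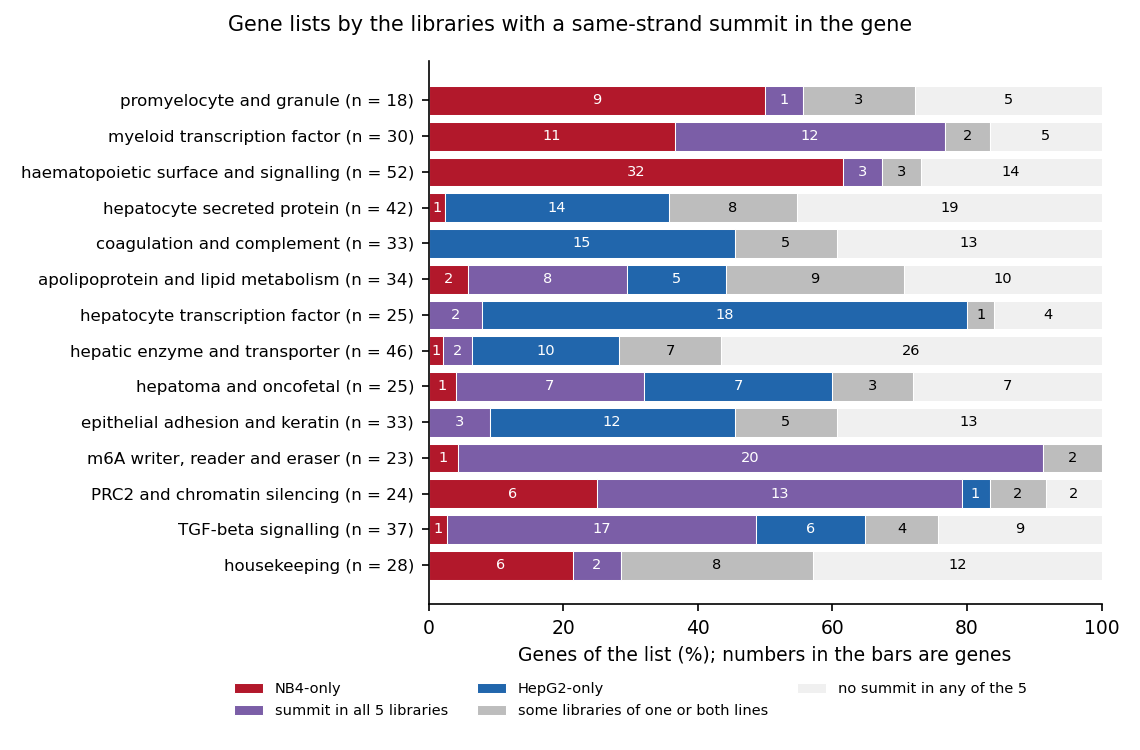
Percent of the genes of each list (bars, numbers of genes inside) by the libraries with a same-strand summit. NB4-only are 32 of 52 haematopoietic surface and 9 of 18 granule genes (14 and 5 have no summit), HepG2-only are 15 of 33 coagulation genes and 18 of 25 hepatocyte transcription factors (13 and 4 have none), and 20 of 23 m6A genes have a summit in all 5 libraries.

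Line-only regions were not confined to genes that lacked peaks in the other line. In protein-coding genes 5273 NB4-only regions on the sense strand lay in 2957 genes, and 52.3% of these regions were in genes that had a peak elsewhere in HepG2. The 4474 HepG2-only regions lay in 2351 genes, and 48.9% were in genes with a peak elsewhere in NB4. Long noncoding RNA genes differed, since 71.7% of their 887 NB4-only regions and 71.9% of their 1142 HepG2-only regions were in genes with no peak in the other line. Of the protein-coding genes with a line-only region, 287 held both kinds, which is 9.71% of the genes with an NB4-only and 12.2% of those with a HepG2-only region.

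PTPRN2 held more line-only regions than any other gene in the HepG2-only and in the NB4-only class. The gene encodes a receptor-type tyrosine phosphatase of secretory vesicles and spans 1048.77 kb on the minus strand of chromosome 7. It had 38 NB4-only, 61 HepG2-only and 2 shared regions, and the line-only regions occupied different stretches. All 38 NB4-only summits lay between 914 and 1048 kb from the annotated start, whereas the 61 HepG2-only summits lay between 29.4 and 841 kb. Of the single peaks in the gene, 49 of 49, 52 of 54 and 50 of 50 in NB4 Control 1, 2 and 3 fell in the last 25% of its length, against 5 of 68 and 4 of 80 in HepG2 WT 1 and 2. All but 1 of the 99 line-only regions were intronic.

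The libraries that had no part in the choice gave the same picture for PTPRN2. The 3 NB4 libraries with RBFOX2 knocked down (KD) held 56, 55 and 54 summits in the gene, of which 53, 53 and 54 were in that last 25%. All 38 NB4-only regions had a peak in all 3 of these libraries, and 59 of the 61 HepG2-only regions had a peak in none. No K562 library had a summit in the gene. The strongest NB4-only region, at -log10 q of 202, 185 and 163, and the strongest HepG2-only region, at 103 and 198, read as follows, both without GGACT in the window.

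PTPRN2 (NB4-only, intron 15 of 22, chr7:157605938-157606038, - strand): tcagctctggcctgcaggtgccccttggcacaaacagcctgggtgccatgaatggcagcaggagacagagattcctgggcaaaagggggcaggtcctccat
PTPRN2 (HepG2-only, intron 1 of 22, chr7:158524838-158524938, - strand): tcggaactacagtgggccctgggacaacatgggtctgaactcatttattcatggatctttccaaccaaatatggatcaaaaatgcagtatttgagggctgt

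**Figure D3:**
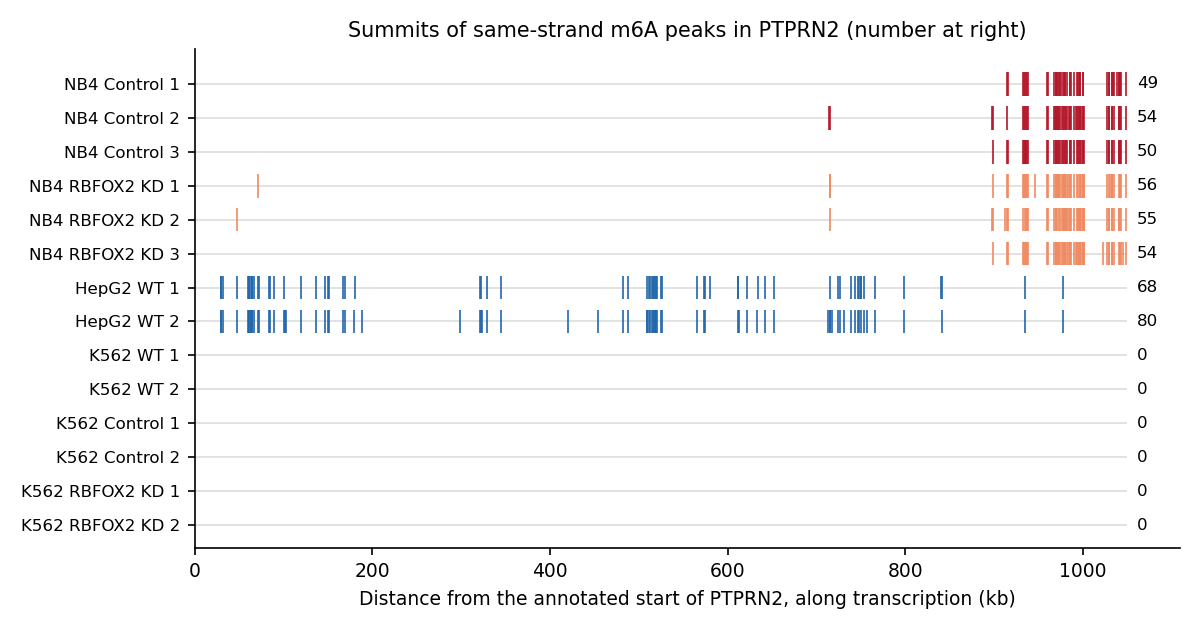
Summits of same-strand peaks in PTPRN2 by library (rows), against the distance from the annotated gene start in kb along the direction of transcription. NB4 Control and NB4 RBFOX2 KD summits crowd beyond 897 kb, HepG2 WT summits spread from 29.4 kb to 841 kb with 2 regions farther on, and the K562 libraries have 0 summits.

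Other genes with many line-only regions held them in a single class. INPP5A, an inositol phosphatase gene, had 26 NB4-only regions, COL23A1 and RASA3, a collagen and a Ras GTPase-activating protein, 25 each, and AHRR, the repressor of the aryl hydrocarbon receptor, 23. None of these 4 genes had a HepG2-only or a shared region. On the HepG2 side SHANK2, a synaptic scaffold gene, had 27, EDA, the ectodysplasin gene, 26, MAGI2, a scaffold gene, 22, and DST, a cytolinker gene, 21, with no NB4-only region. Introns held most of the regions, from 16 of 23 in AHRR to 26 of 26 in INPP5A, but 5 of 21 in DST. In NB4 RBFOX2 KD all 25 COL23A1 regions and 24 of 26 INPP5A regions were present in all 3 libraries, and none of the SHANK2, EDA, MAGI2 and DST regions was present in any.

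Shared regions differed from line-only regions of both lines in introns, coding exons, stop codons, intergenic and antisense summits. Introns held 32.6% of NB4-only and 34.5% of HepG2-only regions, close to the 33.4% of all merged regions, against 15.3% of shared ones. Coding exons held 7.79% and 10.1% (11.5% of all merged regions) against 22.8%, and windows around stop codons 5.60% and 6.21% (6.62%) against 14.7%. Intergenic summits made up 6.52% and 7.43% (5.12% of all merged regions) against 1.22%, and summits antisense to a gene 8.64% and 8.89% (6.58%) against 2.94%. In introns and at stop codons it was thus the shared class that lay away from the value over all regions. Seen from the gene part, 41.8% of all merged regions at stop codons and 37.2% of those in coding exons were shared, but 4.50% of intergenic ones. The 95% Wilson intervals of these shares cover counting error only.

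Between the lines the clearest gap in this description was at promoters, from 1 kb upstream to 100 bases downstream of a transcript start. On the strand of the gene 16.6% (15.8 to 17.4) of NB4-only and 11.8% (11.1 to 12.6) of HepG2-only regions lay there, against 18.8% of shared and 16.2% of all merged regions. Per library, 17.6% ± 1.42 of NB4 (SD, n = 3) and 15.4% ± 0.7997 of HepG2 peaks (n = 2) did, with p = 0.2 in the exact permutation test and 0.48 after Benjamini-Hochberg adjustment over the parts. Coding exons went the other way, with 14.7% ± 0.646 in NB4 and 16.7% ± 0.430 in HepG2, and the lines did not overlap there, nor at stop codons (8.27% and 9.496%) or in 3′ UTRs (6.47% and 7.33%). Downstream of genes the NB4 share was the higher, 1.72% against 1.37%, also with no overlap. Each of these 4 parts had p = 0.1, the smallest possible, and an adjusted p of 0.3 in the exact permutation test, so none passed. With lists of equal length the difference (NB4 minus HepG2) shrank from -2.03 to -0.849 percentage points in coding exons, and from -1.23 to -0.465 at stop codons. Intron shares of single libraries overlapped (p = 0.9, exact permutation test), with 31.0% in NB4 Control 3 the highest.

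Where a gene also had peaks in the other line, its line-only regions were more often intronic. In such genes introns held 50.9% of NB4-only and 51.1% of HepG2-only regions, against 34.1% and 35.0% in genes with no peak in the other line. Stop codon windows held 4.17% and 5.76% in the former and 14.3% and 15.1% in the latter. The pattern was alike in both lines. The class of a region and the status of its gene were drawn from the same 5 lists, so the contrast is a description and was not tested. Over all merged regions 41.8% at stop codons but 8.62% in introns were shared, and shared regions could not be line-only.

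**Figure D4:**
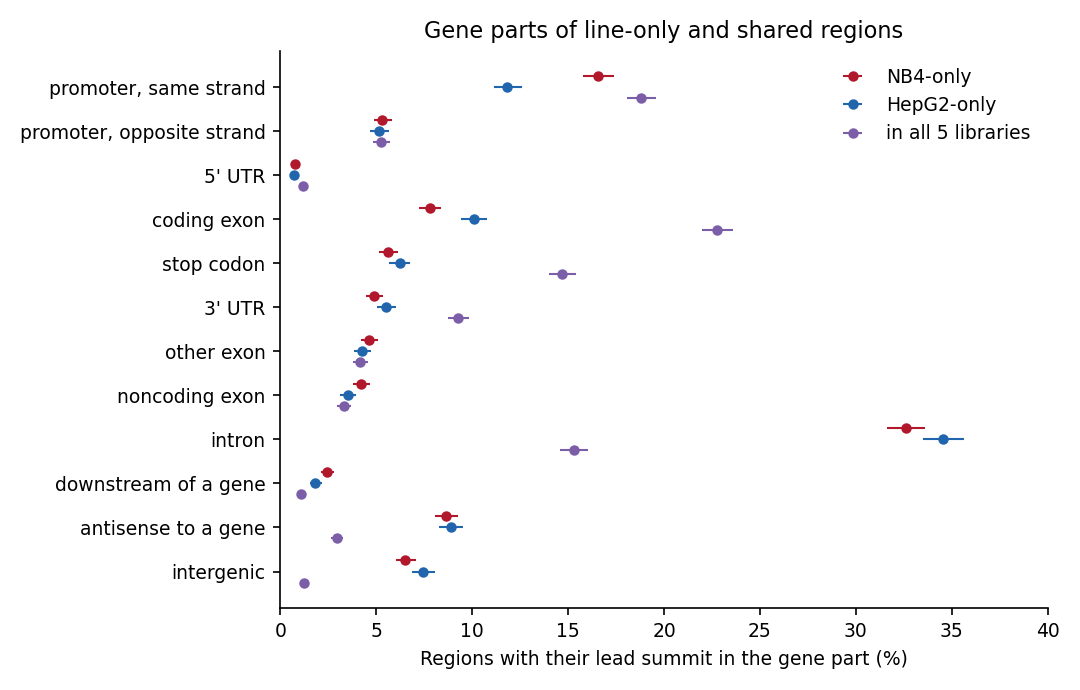
Percent of NB4-only (8457), HepG2-only (7563) and shared (9888) regions with their lead summit in each gene part, with 95% Wilson intervals as bars. Shared regions have fewer introns (15.3%, against 32.6% and 34.5% of line-only and 33.4% of all merged regions) and more coding exons and stop codons than line-only regions of either line, and NB4-only exceeds HepG2-only at same-strand promoters (16.6% against 11.8%).

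Chromosomes contributed unequally. On chromosome 19, which is rich in genes, 20.4% of merged regions were NB4-only and 9.26% HepG2-only, and on chromosome 7 the shares were 20.8% and 12.4%. The reverse held on chromosome 14, with 10.6% and 20.4%, and on chromosome 2, with 11.5% and 19.3%. No test was run on these shares.

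GGACT was found within 75 bases of the lead summit in 25.2% (95% Wilson interval 24.3 to 26.1) of NB4-only, 21.9% (21.0 to 22.9) of HepG2-only and 27.9% (27.0 to 28.8) of shared regions. In windows of the same length 300 bases to either side the shares were 13.02%, 12.3% and 12.7%, and 22.4% of all merged regions held the motif at the summit. The wider DRACH pattern was in 94.0%, 95.5% and 96.6% of the windows, against 89.9% to 93.0% of the flanks, and GGACT is one of its forms. Per library the excess of GGACT over the flanks was 11.7 ± 0.541 percentage points in NB4 (n = 3) and 10.3 ± 0.788 in HepG2 (n = 2), the smallest p of 0.1 in the exact permutation test. That difference of 1.40 points was 0.507 at matched depth (exact permutation p = 0.5) and 1.08 with stricter peaks (p = 0.3). The excess was largest for shared 3′ UTR regions, 36.6% of which held GGACT, as did 32.1% of NB4-only and 24.5% of HepG2-only regions there. GC content also differed, its median at the summit being 55.6% for NB4-only, 47.0% for HepG2-only and 53.0% for shared regions. NB4-only regions thus led in GC but shared regions in GGACT, and the part of GC in the motif shares was not tested.

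Tandem repeats like that printed for AZU1 were counted after the sequences had been seen. A window of 151 bases around the summit counted as a repeat if at least 80% of its bases equalled the base 1 period earlier, for any period from 5 to 50 bases. By this measure AZU1 matched itself at 89.0% with a period of 33 bases and CCDC88C at 65.9% with 28. Repeats were at the summit of 104 NB4-only (1.23%), 30 HepG2-only (0.397%) and 40 shared regions (0.405%). In introns the counts were 66 of 2757 NB4-only (2.39%), 18 of 2613 HepG2-only (0.689%) and 23 of 1512 shared regions (1.52%). Copies of a repeat share sequence, so where reads fell within it is uncertain.

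Ranks were compared over the 9888 shared regions, which tells whether the significance of a shared region ranks higher in one line than in the other. The -log10 q of each region was turned into a normal score of its rank within the library, and the difference, NB4 minus HepG2, was fitted with limma. By its moderated test with Benjamini-Hochberg adjustment, 1303 regions (13.2%) were higher in NB4 and 1299 (13.1%) higher in HepG2, and 3951 had an unadjusted p under 0.05. Every library has the same set of scores, so higher ranks of some regions are offset by lower ranks of others. The near-equal counts in the 2 directions thus follow largely from the scoring. The counts rested on both HepG2 libraries, since without HepG2 WT 1 they were 468 and 376 and without HepG2 WT 2 they were 792 and 714.

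The largest difference towards NB4 was in PPP1R12C, which encodes a regulatory subunit of myosin phosphatase. Its -log10 q was 664, 652 and 610 in NB4 Control 1, 2 and 3 and 10.0 and 17.2 in HepG2 WT 1 and 2, a difference of 4.99 score units (SE 0.28, limma adjusted p = 3.3e-05). BCL2L1, which encodes the survival factor BCL-XL, had 322, 257 and 264 against 3.62 and 29.5. JAG1, a Notch ligand gene, had 312, 341 and 345 against 6.01 and 57.6. A PTPRN2 region at 287, 309 and 284 against 11.1 and 18.95 was also among the first 10, with RPGR, CARD8, PNPLA7, EXOC3 and SLC12A9.

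Towards HepG2 the largest difference was in GOSR2, a Golgi SNARE gene, with -log10 q of 12.3, 9.02 and 7.90 in NB4 and 111 and 231 in HepG2, a difference of -4.39 (SE 0.33, limma adjusted p = 0.0002). GSE1, a gene of a chromatin corepressor, had 8.73, 13 and 6.79 against 97.7 and 248, and CAMSAP2, which encodes a protein of microtubule minus ends, 17.8, 13.7 and 24.3 against 136 and 231. CSF1, the macrophage growth factor gene, had 13.8, 4.41 and 7.34 against 81.0 and 136. The rest of the 10 were SOCS6, LRRC75B, the gene ENSG00000285816, ITPRIPL2, VPS54 and SOWAHC. The regions named for both directions were picked among called ones in which all libraries of a line lay above all of the other. The gap between the lines in them thus follows from the choice.

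By gene part the calls were not balanced everywhere. At same-strand promoters 15.7% of shared regions were higher in NB4 and 11.4% higher in HepG2, and in introns 16.5% and 12.4%. At promoters on the opposite strand the shares were 9.40% and 16.9%, and in coding exons 10.3% and 12.9%. Among the 36 shared regions in m6A genes 2 were higher in NB4 and 3 higher in HepG2. ALKBH5, an m6A demethylase gene, had a region in exon 1 of 4 at -log10 q of 167, 134 and 166 in NB4 and 24.1 and 72.2 in HepG2, a difference of 1.13 (SE 0.32, limma adjusted p = 0.026), which was not called without NB4 Control 1, NB4 Control 3 or HepG2 WT 1. The strongest METTL3 region had 66.3, 85.5 and 46.3 against 13.1 and 34.7 and was not called. The shared promoter region of TGFB1 had 191, 266 and 221 against 84.0 and 124, a difference of 0.49 (SE 0.30, limma adjusted p = 0.26). Of the 32 shared regions in TGF-beta pathway genes 2 were called in each direction, and of the 18 in Polycomb and silencing genes 4 were higher in NB4 and none in HepG2, beside 13.2% and 13.1% of all shared regions.

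The 9 IP libraries outside the comparison showed how far the regions recur. NB4-only regions were overlapped by a peak at 92.4%, 90.1% and 89.7% in the 3 NB4 RBFOX2 KD libraries, and HepG2-only regions at 9.78%, 8.26% and 8.45%. Shared regions were found at 98.1% to 98.6% there. In other libraries of NB4, from cells with RBFOX2 knocked down, NB4-only regions were thus mostly present and HepG2-only regions mostly absent. The series has no further HepG2 IP library, so whether HepG2-only regions recur in HepG2 was not seen. In the 6 K562 libraries NB4-only regions were found at 34.8% to 47.4% and HepG2-only regions at 28.6% to 37.3%, with the NB4-only share the higher in each library, and shared regions at 85.8% to 93.3%. Of the NB4-only regions 27.6% had a peak in all 6 K562 libraries and 44.5% in none, and of the HepG2-only regions 22.3% and 55.0%.

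**Figure D5:**
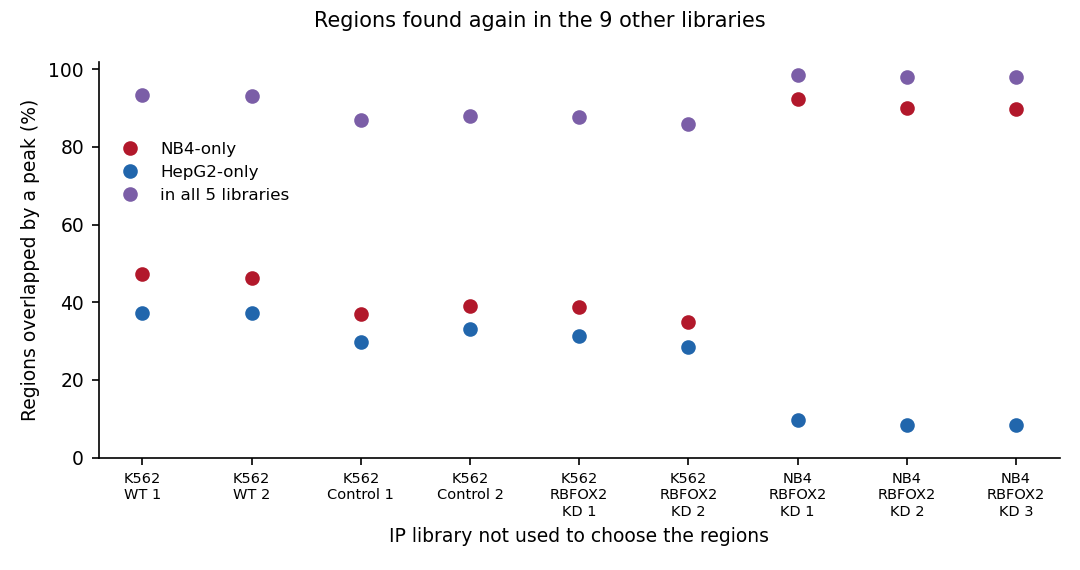
Percent of NB4-only, HepG2-only and shared regions overlapped by at least 1 base of a peak in each of the 9 libraries that did not define them. In NB4 RBFOX2 KD libraries NB4-only regions reach 89.7% to 92.4% and HepG2-only regions 8.26% to 9.78%, whereas in K562 libraries the classes lie at 34.8% to 47.4% and 28.6% to 37.3%.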

How the data were processed

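Per the study's methods, the authors trimmed reads with Trimmomatic 0.39, aligned them to hg38 with HISAT2 2.1.0 and GENCODE 29, split strands with SAMtools 1.9 and called peaks per library and strand with MACS2 (q under 0.01, reads extended to 150 bases, up to 5 duplicates kept). The deposited lists hold, per peak, a score, the fold (a ratio to local background) at the summit, -log10 p and -log10 q, as the authors' peak caller wrote them. They hold no read counts. Effective depth was solved from fold and -log10 p. Input libraries are not analysed here.

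Summits were placed with GENCODE 44 (hg38) in 12 gene parts, by any annotated transcript (stop codon, within 200 bases; downstream, within 5 kb). Exon and intron numbers follow the canonical transcript. Shares per library were compared by exact permutation tests, two-sided, and ranks by limma 3.58.1 in R 4.3.3, tested on simulated data first. Python ran with numpy 2.4.6, pandas 2.3.3, scipy 1.17.1, pysam 0.24.0 and matplotlib 3.10.9.

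Members, gene lists and tests were chosen with earlier results of these data known. Named genes were, per line, the 10 strongest line-only regions, the 5 genes with most line-only regions, the 10 shared regions with the largest called rank difference, and examples from the gene lists. The shared regions had to have all libraries of a line above all of the other. Markers and list examples beyond that rule, repeats and positions in PTPRN2 were described after their values had been seen. Some items are not reported here.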

Additional observations from a re-analysis of the deposited data

How the results depend on the processing

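The alternatives were stricter peaks (-log10 q of at least 5), matched depth, equal list sizes, windows around summits, at least 50% of a region covered, other promoter definitions (starts of canonical transcripts were added after seeing the data), percentiles in place of normal scores, and leaving out each library. Peak lists limit what absence means, and the HepG2 lists had the lower median fold. Line-only counts stayed within 1.5 times except for NB4-only regions, with 5292 at equal list sizes and 13953 with at least 2 NB4 libraries, and for HepG2-only regions without HepG2 WT 1 (12050). Leaving out a library gave 8698 to 11281 NB4-only and 7780 to 12050 HepG2-only regions. It gave 468 to 1146 shared regions higher in NB4 and 376 to 1221 higher in HepG2.

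Differences in gene part shares (NB4 minus HepG2, percentage points) that changed sign were small, and none passed its test. With promoters within 500 bases they were -0.0565 for other exons, -0.0196 for noncoding exons and -0.00271 for the 5′ UTR. With equal list sizes they were -0.0582 for intergenic, -0.390 for antisense, -0.404 for intron and -0.0265 for other exon summits. Leaving out a library gave -0.0144 to 0.0589 for other exons, -0.0147 to 0.0486 for the 5′ UTR, -0.00712 to 0.319 for antisense, -0.327 to 2.54 for introns and -0.0312 to 0.248 for noncoding exons. The difference in GGACT excess was 0.507 at matched depth and that of DRACH 0.133 (main value 0.332), both with p = 0.5 in the exact permutation test. Without a library, GGACT gave 0.848 to 1.96 and stop codons -1.74 to -0.714. The cause was not tested.

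Replicate numbers were shared by only 2 pairs of different lines, and deviations of same-numbered libraries correlated at -0.043 and 0.058, so the libraries share only a number. With the replicate block 1046 shared regions were higher in NB4 and 1088 higher in HepG2, and ALKBH5 was not called. Of 1836 values for 166 named regions, 1799 kept direction and call, 22 lost their line-only status (at equal list sizes ACACA, CPT1A, CYP2E1, RBFOX2 and PTPRC among them, and with summit windows SPI1, DNMT3B, F5, FOXA1, BMP4 and SMAD1), 4 lost their call and 11 changed sign. The sign changes were in uncalled regions. They were in YTHDF1 (-0.179 on percentiles, -0.0410 with the block, -0.0703 to 0.251 without a library), PCIF1 (0.0293 with the block, -0.283 to 0.0321), RBM15B (-0.0299 to 1.01), YTHDC1 (-0.00865 to 0.358), IGF2BP2 (-0.0481 to 0.721) and IGF2BP3 (-0.0270 to 0.386).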

Other observations

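Long noncoding RNA genes with a summit numbered 2109, of which 408 were NB4-only, 423 HepG2-only and 603 in all 5 libraries. Protein-coding genes numbered 10707, with 1496, 1128 and 5544. The shares were not tested.

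Among markers of other cell types, PDGFRB and ACTA2 of stromal cells were HepG2-only and PECAM1 of endothelium NB4-only, which are 3 of 12 markers with a summit. The cholangiocyte markers KRT19 and SOX9 were HepG2-only and SPP1 had a summit in some libraries.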
